A study of Mus musculus with 15 samples.

Results

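The 10 genes described here encode the enzymes that build triglyceride from fatty acids and a glycerol backbone, together with Pck1, an enzyme that supplies the backbone. They are Pck1, Gpam, Agpat2, Agpat3, Lpin1, Lpin2, Lpin3, Mogat1, Dgat1 and Dgat2. They were chosen by gene symbol, and each matched 1 of the 24030 symbols in the expression table. All 10 passed the filter on low counts that left 15083 genes for testing.

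Brown adipose tissue (BAT) burns fatty acids to make heat and stores them as triglyceride droplets. In the glycerol phosphate pathway, Gpam adds the first fatty acid to glycerol 3-phosphate, Agpat enzymes add the next, lipins remove the phosphate to give diacylglycerol, and Dgat enzymes add the last fatty acid. Mogat1 reaches diacylglycerol by another route, from monoacylglycerol. Pck1, the cytosolic phosphoenolpyruvate carboxykinase, serves glyceroneogenesis in fat cells, the making of glycerol 3-phosphate from precursors other than glucose.

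BAT was profiled by bulk RNA sequencing in 4 groups of mice: BAT-specific DJ-1 knockout (BDJ1KO, here KO) at 29 °C (n = 3), flox control (WT) at 29 °C (n = 4), KO at room temperature (n = 4) and WT at room temperature (n = 4). The labels give 8 weeks of housing at the stated temperature. DJ-1 is the redox-sensitive protein encoded by Park7. The labels name the knockout as specific to BAT but give no Cre driver, age or sex, and the series title calls the animals humanized mice without further detail. Nothing in the labels ties each replicate to its own mouse, and the p-values below therefore reflect spread among libraries that may be partly technical.

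Levels are counts divided by the TMM-scaled library size (CPM), and effects are log2 fold changes ± SE from edgeR's quasi-likelihood test. That test gives no SE of its own. The SE was worked out as the absolute log2 fold change over the square root of the F statistic, and is approximate. A gene was called when its Benjamini-Hochberg adjusted p over all 15083 genes was under 0.05. Replicate 1 of KO at 29 °C was the deepest library, with 38800967 estimated counts, and the other 14 held 23977448 to 26789246. As a check of the labels, Park7 lay between 25.4 and 35.2 CPM in KO at 29 °C, against 104 to 128 CPM in WT at 29 °C, and between 25.0 and 34.1 CPM in KO at room temperature, against 108 to 112 CPM in WT at room temperature. Every KO library thus lay below every WT library for the deleted gene. Skeletal muscle markers took 0.0658% and 0.203% of counts in KO at 29 °C replicates 2 and 3 and 0.181% in WT at 29 °C replicate 2, but at most 0.00626% in the other 12 libraries. Mitochondrially encoded transcripts made up 25.8% to 26.9% of the counts in KO at 29 °C, 30.2% to 41.6% in WT at 29 °C, 22.7% to 25.2% in KO at room temperature and 25.2% to 27.4% in WT at room temperature. KO at room temperature replicates 2 and 4 stood apart on the fourth principal component, at -41.3 and -34.1, against -16.3 to 24.7 in the other 13 libraries.

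At 29 °C most of the genes were higher in KO than in WT. Pck1, Lpin1, Dgat2 and Gpam rose, being 2.17 to 3.99 times as high, Agpat3, Agpat2 and Dgat1 rose to 1.42 to 1.58 times the WT level, and Lpin2 fell to 0.656 of the WT level. Lpin3 and Mogat1 were not called. Of the 10 genes, 7 were called higher and 1 lower, where 44.7% of all genes tested were called, 24.7% higher and 20.0% lower. Their median log2 fold change was 0.63, against 0.04 over all genes. In 7 of the 10 genes no KO library lay within the WT range, as in 43.1% of all genes tested.

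At room temperature none of the 10 genes was called between KO and WT, where 0.239% of all genes tested were. Their adjusted p ran from 0.389 to 0.865 and their log2 fold changes from -0.67 for Pck1 to 0.44 for Lpin1, with a median of -0.10, against 0.01 over all genes. At an unadjusted p under 0.05, 2 of the 10 passed, Pck1 and Lpin1, as did 11.1% of all genes. No gene of the 10 had groups that did not overlap, where 8.21% of all genes did, and neither DESeq2 nor limma-voom called any of them.

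In WT, housing at 29 °C moved all 10 genes: 8 fell and 2, Lpin2 and Lpin3, rose, relative to room temperature. The share of all genes called in this comparison was 68.8%, with 35.9% higher and 32.8% lower. The median log2 fold change of the 10 genes was -1.51, against 0.06 over all genes, and in all 10 the groups did not overlap, as in 62.6% of all genes. In KO, 5 of the 10 were called between 29 °C and room temperature, close to the 46.0% of all genes (24.3% higher and 21.7% lower): Gpam, Agpat2, Agpat3 and Mogat1 fell and Lpin3 rose. The median there was -0.34, against 0.04 over all genes, and in 5 of 10 the groups did not overlap, as in 48.1% of all genes. Scaling by library totals without TMM factors shifted the median of all genes by 0.35 in WT and 0.31 in KO in these housing comparisons, and moved the split of calls over all genes to 7517 higher and 2981 lower in WT, against 5421 and 4954 with TMM, and to 6469 and 1244 in KO, against 3664 and 3276. No called member changed direction under it. The KO effect at 29 °C and the housing effect in WT share the WT libraries at 29 °C, and the KO effect at 29 °C and the housing effect in KO share the KO libraries at 29 °C, so their values are given side by side only.

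The difference between the KO effect at 29 °C and that at room temperature was tested as an interaction. It was called for 7 of the 10 genes, 6 positive and 1 negative, where 28.3% of all genes were called, 16.0% positive and 12.3% negative. The 7 were Pck1, Gpam, Agpat3, Lpin1, Lpin2, Dgat1 and Dgat2. For Agpat2, Lpin3 and Mogat1 the interaction was not called, with log2 values of 0.21 ± 0.29, 0.07 ± 0.23 and -0.15 ± 0.35. The 10 genes had a median of 0.70, against 0.01 over all genes.

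**Figure D1:**
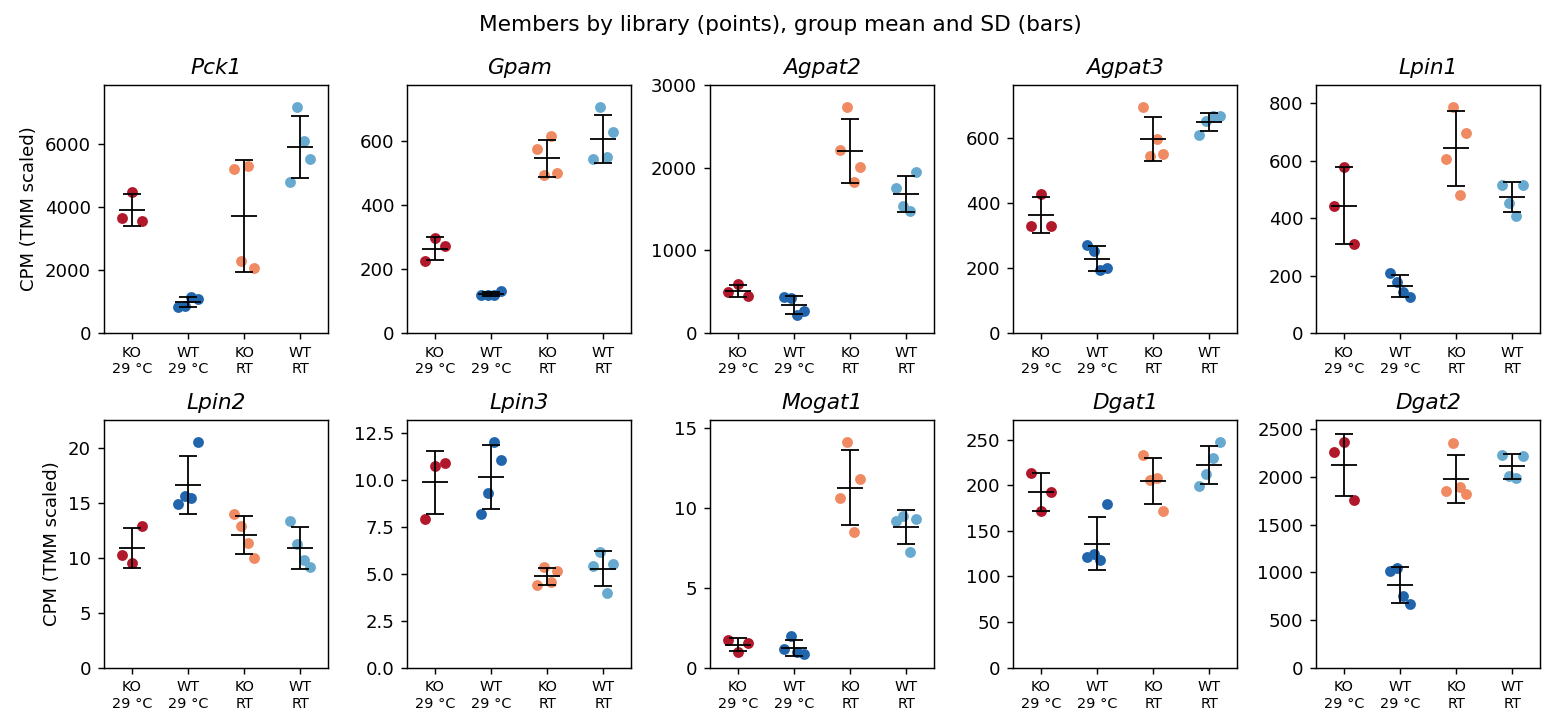
Level of each of the 10 genes in every library, in CPM on linear axes starting at 0, for KO and WT at 29 °C and at room temperature (RT); points are libraries and bars the mean ± SD. Pck1, Gpam, Agpat2, Agpat3, Lpin1 and Dgat2 in KO at 29 °C lie above every WT library at 29 °C, whereas Mogat1 is near 1 CPM in both groups at 29 °C.

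Pck1 (ENSMUSG00000027513.11; chromosome 2, 173153048 to 173159273, plus strand, GRCm38/mm10) had the largest KO effect at 29 °C of the 10 genes. It measured 3664, 4492 and 3574 CPM in KO at 29 °C and 820.2, 870.5, 1145 and 1084 CPM in WT at 29 °C. At room temperature it measured 5223, 2303, 5313 and 2053 CPM in KO and 4812, 7171, 6119 and 5539 CPM in WT. The warm KO libraries all lay far above their WT counterparts, and the room-temperature KO libraries split into a high and a low pair, the low pair being the replicates 2 and 4 that stood apart. Pck1 rose in KO at 29 °C (log2 fold change 2.0 ± 0.30, adjusted p = 1.1e-04) and fell at 29 °C in WT (-2.59 ± 0.29, adjusted p = 2.1e-06). The housing effect in KO was 0.07 ± 0.29 (adjusted p = 0.865), and it was -0.43 without the low pair (adjusted p = 0.0780). The KO effect at room temperature was -0.67 ± 0.27 (adjusted p = 0.389) and -0.17 without that pair. The interaction was 2.66 ± 0.40 (adjusted p = 3.4e-04), and 2.16 without the pair.

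Gpam (ENSMUSG00000024978.11; chromosome 19, 55067268 to 55127238, minus strand), the mitochondrial glycerol-3-phosphate acyltransferase, catalyses the first committed step. Its levels were 225, 297 and 271 CPM in KO at 29 °C and 117, 118, 119 and 133 CPM in WT at 29 °C. They were 573, 495, 615 and 500.3 CPM in KO at room temperature and 542, 705, 549.6 and 629 CPM in WT at room temperature. Warm KO libraries thus lay above all warm WT libraries and below all libraries at room temperature. Gpam rose in KO at 29 °C (1.12 ± 0.12, adjusted p = 3.2e-06), and fell at 29 °C in KO (-1.05 ± 0.12, adjusted p = 7.7e-06) and in WT (-2.32 ± 0.12, adjusted p = 3.1e-10). The interaction was 1.27 ± 0.16 (adjusted p = 6.5e-05).

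Mogat1 (ENSMUSG00000012187.13; chromosome 1, 78510991 to 78538173, plus strand), monoacylglycerol acyltransferase 1, fell at 29 °C in both genotypes. It measured 1.76, 0.977 and 1.56 CPM in KO at 29 °C and 1.18, 1.96, 1.003 and 0.848 CPM in WT at 29 °C, from 21 to 74 estimated counts a library. At room temperature the values were 10.6, 14.1, 8.46 and 11.8 CPM in KO and 9.18, 9.45, 7.22 and 9.26 CPM in WT. KO and WT overlapped at both temperatures, while every warm library lay below every room-temperature library. The housing effects were -2.95 ± 0.27 in KO (adjusted p = 1.2e-06) and -2.80 ± 0.24 in WT (adjusted p = 5.4e-08), and the KO effects were 0.21 ± 0.27 at 29 °C (adjusted p = 0.568) and 0.36 ± 0.22 at room temperature (adjusted p = 0.562). Its exons share 200 bases with the antisense gene BC035947. That gene has no row in the table used here, and neither labels nor notes say whether reads were counted by strand.

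The upstream sequences of Pck1, Gpam and Mogat1 are shown because these genes stand for the different patterns: Pck1 with no called housing effect in KO, Gpam with a called but smaller one in KO, and Mogat1 with no called KO effect. They come from RefSeq's promoter table (GRCm38.p6) and run 5′ to 3′ on the gene's strand, ending at the first annotated exon: chr2:173152823-173153047 (plus), chr19:55127239-55127488 (minus) and chr1:78510810-78510990 (plus). Capitals mark matches on either strand to 3 motifs, TTACGTCA (the cyclic AMP response element as in Pck1; reverse complement TGACGTAA), CCAAT (reverse complement ATTGG) and CACGTG (an E-box, its own reverse complement); none of these matches overlapped another.
Pck1: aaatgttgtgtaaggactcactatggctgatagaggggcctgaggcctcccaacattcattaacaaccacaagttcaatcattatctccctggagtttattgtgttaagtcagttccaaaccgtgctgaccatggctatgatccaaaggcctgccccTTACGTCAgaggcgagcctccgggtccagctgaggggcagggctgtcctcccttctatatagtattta
Gpam: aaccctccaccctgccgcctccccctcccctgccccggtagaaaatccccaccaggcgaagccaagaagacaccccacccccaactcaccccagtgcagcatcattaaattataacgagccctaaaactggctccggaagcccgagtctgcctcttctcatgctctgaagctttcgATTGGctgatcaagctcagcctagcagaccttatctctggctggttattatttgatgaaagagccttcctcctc
Mogat1: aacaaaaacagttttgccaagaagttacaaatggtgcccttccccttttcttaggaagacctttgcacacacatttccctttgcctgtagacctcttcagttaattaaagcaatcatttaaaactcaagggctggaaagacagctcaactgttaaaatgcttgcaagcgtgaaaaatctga
The search covered the 250 bases before the RefSeq start, which for Pck1 and Mogat1 lies downstream of the printed end. Counted back from that start, Pck1 held TTACGTCA at bases 93 to 86 before the start and Gpam held ATTGG at bases 74 to 70, while the Mogat1 window held none of the 3. Of 32851 promoters, 0.447% held the first motif, 33.8% CCAAT and 6.02% CACGTG. Promoters were found for 8 of the 10 genes (12 promoters, Dgat1 and Dgat2 having none). Among them the first motif occurred in Pck1, CCAAT in Gpam and Lpin2, and CACGTG in Lpin2. The first motif was written in the form it has in Pck1, so its match in Pck1 was fixed in advance. A match is a stretch of letters and not a measured binding site.

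Agpat2 and Agpat3 add a fatty acid to lysophosphatidate to form phosphatidate, and loss of AGPAT2 causes lipodystrophy in humans. Agpat2 (ENSMUSG00000026922.13; chromosome 2, 26593057 to 26604417, minus strand) measured 493, 591 and 452 CPM in KO at 29 °C and 439, 428, 224 and 262 CPM in WT at 29 °C. At room temperature it measured 2218, 2728, 1831 and 2012 CPM in KO and 1756, 1541, 1479 and 1951 CPM in WT. The lowest warm KO library was close to the highest warm WT library, and both warm groups lay far below both groups at room temperature. The KO effect at 29 °C was 0.60 ± 0.21 (adjusted p = 0.0311), a call lost under 7 of 17 alternatives (adjusted p from 0.0111 to 0.158 over all 17), among them the fits without KO replicate 1, KO replicate 2, WT replicate 3 or WT replicate 4. Agpat2 fell at 29 °C in KO (-2.10 ± 0.23, adjusted p = 6.0e-06) and in WT (-2.31 ± 0.21, adjusted p = 1.1e-07). Its exons share 64 bases with Egfl7, an endothelial gene on the plus strand that had 1227 to 2143 counts in KO at 29 °C, 3904 to 5201 in WT at 29 °C, 533 to 762 in KO at room temperature and 698 to 1021 in WT at room temperature.

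Agpat3 (ENSMUSG00000001211.15; chromosome 10, 78269178 to 78352489, minus strand) measured 330.2, 426 and 329 CPM in KO at 29 °C and 271, 252, 194 and 199 CPM in WT at 29 °C. It measured 693, 545, 597 and 549 CPM in KO at room temperature and 609.7, 652, 666 and 666 CPM in WT at room temperature. The only groups to overlap were the genotypes at room temperature. Agpat3 shares 16 exon bases with Gm40709, for which the table used here has no row. Agpat3 rose in KO at 29 °C (0.66 ± 0.13, adjusted p = 7.5e-04) and fell at 29 °C in KO (-0.72 ± 0.13, adjusted p = 4.4e-04) and in WT (-1.503 ± 0.125, adjusted p = 3.2e-08). The interaction was 0.78 ± 0.18 (adjusted p = 0.00437), against 0.21 ± 0.29 for Agpat2 (adjusted p = 0.625). That of Agpat3 lost its call under 1 of 25 alternatives, the fit without the 3 libraries with muscle transcripts. That fit left 1 KO library at 29 °C. Per kilobase of exon, Agpat2 exceeded Agpat3 by 5.19 ± 0.24 times in KO at 29 °C, 5.30 ± 0.93 times in WT at 29 °C, 13.7 ± 3.2 times in KO at room temperature and 9.51 ± 1.31 times in WT at room temperature (SD).

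**Figure D2:**
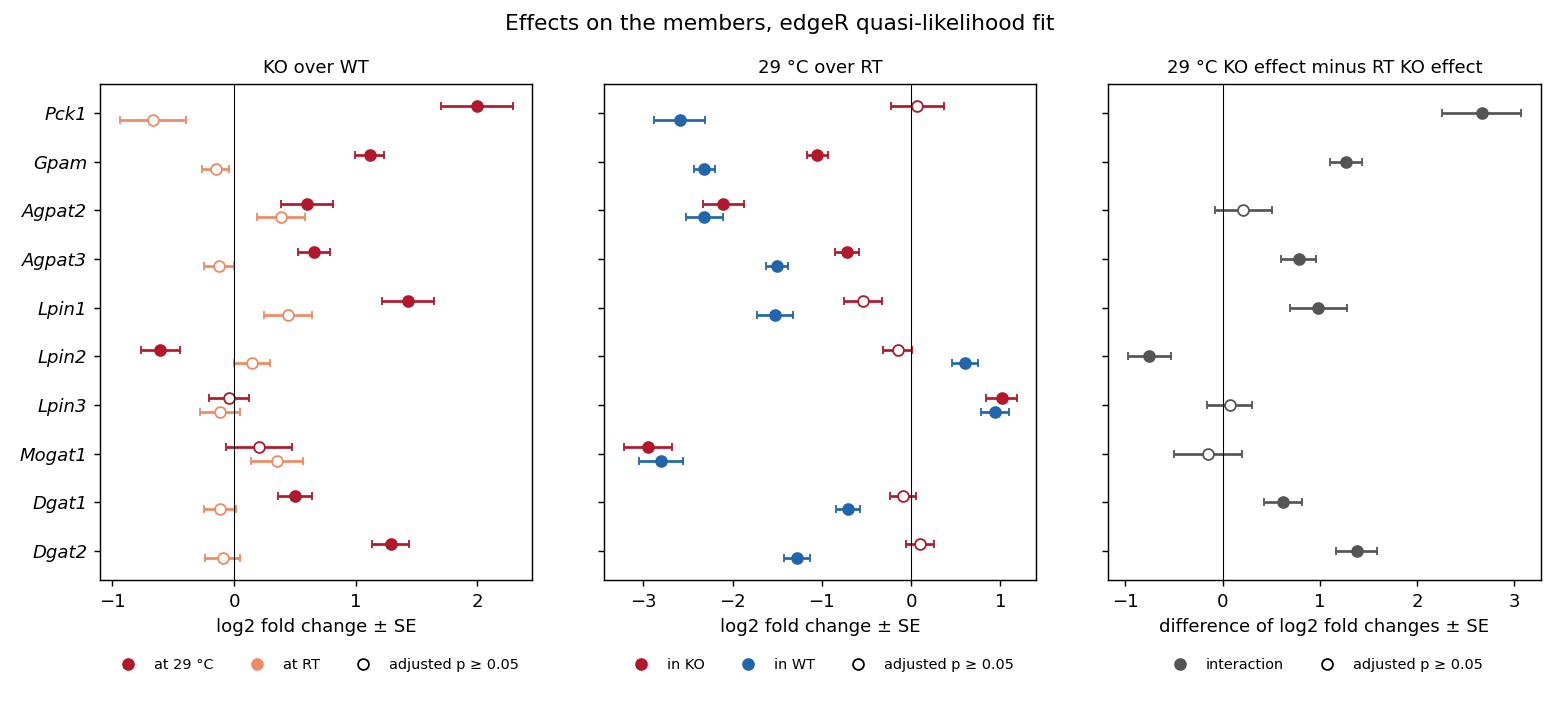
Log2 fold change ± SE of each gene from edgeR's quasi-likelihood test: KO over WT at 29 °C and at room temperature (RT), 29 °C over RT in KO and in WT, and the interaction; open points have an adjusted p of 0.05 or more. All 10 genes are filled for 29 °C over RT in WT, whereas 5 are filled in KO.

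The 3 lipins, phosphatidate phosphatases that also act as transcriptional co-regulators, behaved differently from each other. Lpin1 (ENSMUSG00000020593.15; chromosome 12, 16535669 to 16610966, minus strand) measured 441, 578 and 309 CPM in KO at 29 °C and 211, 179, 143 and 125 CPM in WT at 29 °C. At room temperature it measured 605, 785, 482 and 697 CPM in KO and 514, 454, 407 and 514 CPM in WT. Warm KO libraries lay above all warm WT libraries and across the range of WT at room temperature. Lpin1 rose in KO at 29 °C (1.43 ± 0.21, adjusted p = 9.2e-05) and fell at 29 °C in WT (-1.52 ± 0.20, adjusted p = 8.8e-06). In KO the housing effect was -0.54 ± 0.22 (adjusted p = 0.0540), which passed the threshold under 6 of 18 alternatives (adjusted p from 0.0123 to 0.386). The interaction was 0.99 ± 0.29 (adjusted p = 0.0200), a call lost under 2 of 25 alternatives. One was the fit without KO at 29 °C replicate 2 (0.75, adjusted p = 0.0684). The other was the fit without the 3 libraries with muscle transcripts, which left 1 KO library at 29 °C.

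Lpin2 (ENSMUSG00000024052.17; chromosome 17, 71182560 to 71249817, plus strand) ran the other way. It measured 10.3, 9.50 and 12.9 CPM in KO at 29 °C and 14.9, 15.6, 15.5 and 20.5 CPM in WT at 29 °C, so all warm KO libraries lay below the warm WT libraries. At room temperature it measured 14.1, 12.9, 11.3 and 10.04 CPM in KO and 13.4, 11.3, 9.82 and 9.18 CPM in WT, which overlapped. Lpin2 fell in KO at 29 °C (-0.61 ± 0.16, adjusted p = 0.00623) and rose at 29 °C in WT (0.61 ± 0.15, adjusted p = 0.00189), while the housing effect in KO was -0.15 ± 0.16 (adjusted p = 0.478). The interaction was -0.75 ± 0.22 (adjusted p = 0.0180), and its adjusted p was 0.0573 without KO at 29 °C replicate 2.

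Lpin3 (ENSMUSG00000027412.12; chromosome 2, 160880670 to 160906002, plus strand) measured 7.92, 10.7 and 10.9 CPM in KO at 29 °C and 8.19, 9.30, 12 and 11.1 CPM in WT at 29 °C. It measured 4.396, 5.35, 4.55 and 5.16 CPM in KO at room temperature and 5.42, 6.18, 3.99 and 5.50 CPM in WT at room temperature. Genotypes overlapped at both temperatures, and every warm library lay above every room-temperature library. Lpin3 rose at 29 °C in KO (1.02 ± 0.17, adjusted p = 1.9e-04) and in WT (0.94 ± 0.16, adjusted p = 7.0e-05). Without the 3 libraries with muscle transcripts, which left 1 KO library at 29 °C, the rise in KO was 0.62 and was not called. The KO effects were -0.04 ± 0.17 at 29 °C (adjusted p = 0.859) and -0.12 ± 0.16 at room temperature (adjusted p = 0.847).

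Levels of the 3 lipins were set against each other per kilobase of merged exons. Lpin1 made up 92.3% ± 3.0 of their sum in KO at 29 °C, 79.9% ± 5.9 in WT at 29 °C, 96.6% ± 0.56 in KO at room temperature and 95.5% ± 0.52 in WT at room temperature (SD). No warm KO library came within the warm WT range, which ran from 73.5% to 86.4%, and the warm KO libraries ran from 88.9% to 94.2%. Lpin3 made up 5.73% ± 2.15 in KO at 29 °C and 13.5% ± 4.1 in WT at 29 °C, and Lpin2 made up 1.96% ± 0.88 in KO and 6.66% ± 2.03 in WT at 29 °C. The order of Lpin2 and Lpin3 turned on the length used. With the longest transcript in place of merged exons, Lpin3 made up 3.59% in KO at 29 °C, 8.61% in WT at 29 °C, 1.205% in KO at room temperature and 1.72% in WT at room temperature, and Lpin2 made up 2.51%, 8.66%, 1.86% and 2.21% in those groups. Lpin1 was then 93.9% in KO at 29 °C and 82.7% in WT at 29 °C, and those groups still did not overlap.

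Dgat1 and Dgat2 are unrelated in sequence and both make triglyceride from diacylglycerol in the last step. Dgat2 (ENSMUSG00000030747.5; chromosome 7, 99153658 to 99182719, minus strand) measured 2262, 2362 and 1753 CPM in KO at 29 °C and 1014, 1050.2, 749 and 672 CPM in WT at 29 °C. At room temperature it measured 1853, 2354, 1892 and 1819 CPM in KO and 2228, 2005, 1991 and 2213 CPM in WT. WT at 29 °C was the only low group, and the 3 others overlapped each other. Dgat2 rose in KO at 29 °C (1.29 ± 0.15, adjusted p = 9.7e-06) and fell at 29 °C in WT (-1.28 ± 0.15, adjusted p = 1.1e-06). Its housing effect in KO was 0.10 ± 0.16 (adjusted p = 0.615), and the interaction was 1.38 ± 0.21 (adjusted p = 2.4e-04).

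Dgat1 (ENSMUSG00000022555.12; chromosome 15, 76502015 to 76511953, minus strand) measured 213, 171 and 193 CPM in KO at 29 °C and 122, 124, 119 and 179.8 CPM in WT at 29 °C. It measured 233, 205, 208 and 172 CPM in KO at room temperature and 199, 212, 229.6 and 247 CPM in WT at room temperature. WT at 29 °C replicate 4 reached into the KO range, and it also had the largest mitochondrial share of all libraries, 41.6%; the part of that share in the result was not tested. Dgat1 rose in KO at 29 °C (0.50 ± 0.14, adjusted p = 0.00938), a call lost under 3 of 17 alternatives, among them the fit without KO at 29 °C replicate 1 (adjusted p from 3.5e-04 to 0.0881 over all 17), and fell at 29 °C in WT (-0.71 ± 0.13, adjusted p = 2.0e-04). The interaction was 0.62 ± 0.20 (adjusted p = 0.0264), a call lost under 7 of 25 alternatives (adjusted p from 0.00172 to 0.108).

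The Dgat2 to Dgat1 ratio, per kilobase of merged exons within a library, averaged 11.1 ± 2.4 in KO at 29 °C, 6.65 ± 2.19 in WT at 29 °C, 9.68 ± 1.55 in KO at room temperature and 9.49 ± 1.13 in WT at room temperature (SD). The warm KO and WT libraries did not overlap, at 9.003 to 13.7 in KO and 3.70 to 8.38 in WT. The log2 ratio differed by 0.78 ± 0.33 (two-sided exact permutation p = 0.0857, Benjamini-Hochberg adjusted over 5 comparisons 0.214), and 35 arrangements can give no p under 0.0286. Between 29 °C and room temperature in WT it differed by -0.58 ± 0.29 (two-sided exact permutation p = 0.0286, adjusted 0.143; 70 arrangements can give no lower p). Neither passed after adjustment, and the other 3 comparisons had exact p from 0.314 to 0.886. The housing comparison in WT was already at its lowest possible p. Alone at that limit among 5 comparisons it could not pass, so its adjusted p decides nothing.

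**Figure D3:**
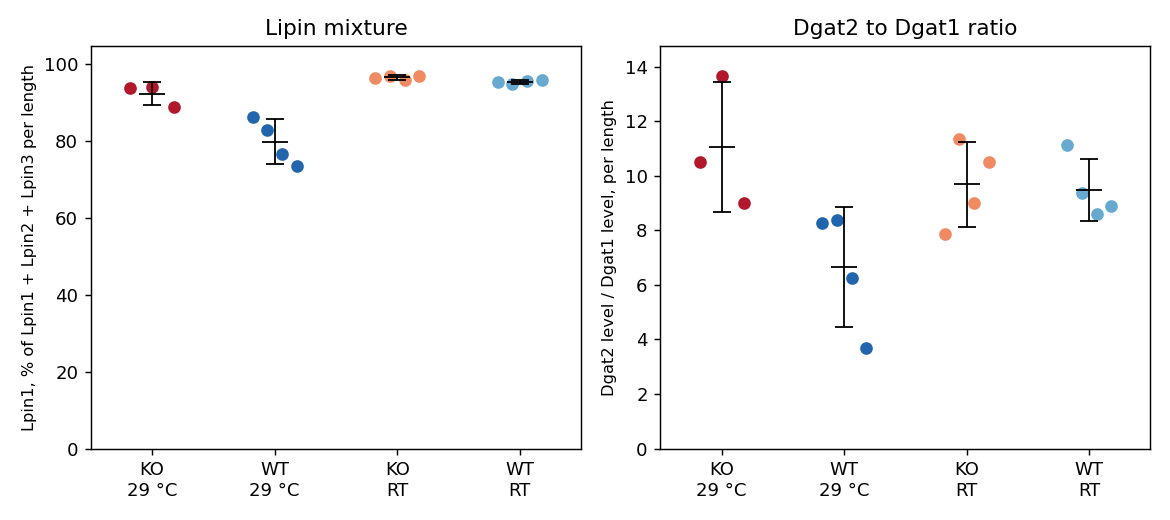
Left, Lpin1 as a percentage of the summed per-length level of the 3 lipins; right, the Dgat2 to Dgat1 ratio per length; points are libraries, bars the mean ± SD, for KO and WT at 29 °C and at room temperature (RT). WT at 29 °C has the lowest mean of each quantity, 79.9% and 6.65.

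KO at 29 °C was also compared with WT at room temperature, where 43.6% of all genes were called, 23.0% higher and 20.6% lower. Of the 10 genes, 5 were called, near that share: Gpam, Agpat2, Agpat3 and Mogat1 were lower and Lpin3 higher. The log2 fold change of Lpin3 was 0.90. It was 0.50 and not called without the 3 libraries with muscle transcripts, which left 1 KO library at 29 °C. As a share of the WT mean at room temperature, Dgat2 averaged 101% in KO at 29 °C and 41.3% in WT at 29 °C, and Lpin1 averaged 93.8% and 34.8% in those groups. Dgat1 averaged 86.8% in KO at 29 °C against 61.3% in WT at 29 °C, and Pck1 66.2% against 16.6%. Gpam averaged 43.5% against 20.1%, Agpat3 55.8% against 35.3%, Agpat2 30.5% against 20.1% and Mogat1 16.3% against 14.2%. The other 2 were lower in KO than in WT at 29 °C on this scale, Lpin2 at 99.96% against 152% and Lpin3 at 187% against 192%. Pck1 was not called (log2 fold change -0.60 ± 0.30, adjusted p = 0.120), though all 3 KO libraries lay below the 4 WT libraries. The groups of 6 of the 10 genes did not overlap, as in 50.3% of all genes. Dgat2 (0.01 ± 0.16), Lpin2 (-0.0013 ± 0.16), Lpin1 (-0.09 ± 0.21) and Dgat1 (-0.20 ± 0.14) were not called either. Intervals of 2 SE on the log2 scale ran from -0.30 to 0.32 for Dgat2, -0.33 to 0.32 for Lpin2, -0.52 to 0.34 for Lpin1 and -0.49 to 0.08 for Dgat1, so differences of that size remain possible. Here too the library totals without TMM moved the split over all genes, to 6838 higher and 1083 lower, against 3476 and 3106.

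**Figure D4:**
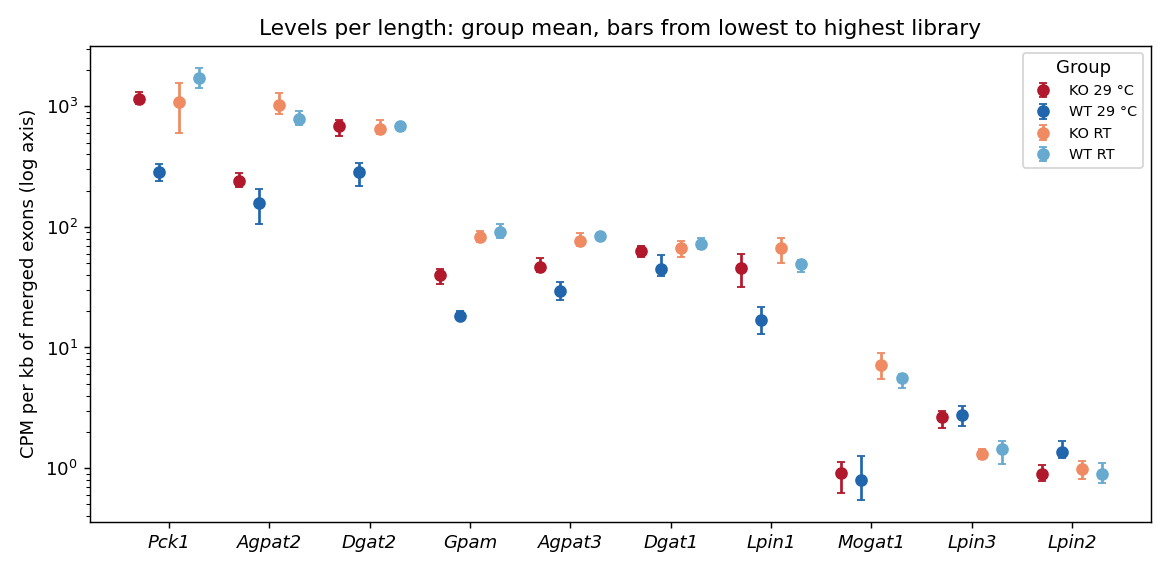
Mean level of each gene in CPM per kilobase of merged exons on a log axis, with bars from the lowest to the highest library, for KO and WT at 29 °C and at room temperature (RT). Pck1, Agpat2 and Dgat2 are the 3 highest of the 10 in every group, and Mogat1, Lpin3 and Lpin2 are the 3 lowest.

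On that per-length scale, with merged exons as the length, Pck1 was highest in all groups, at 1140.3 ± 147.6 CPM per kilobase in KO at 29 °C, 286 ± 46 in WT at 29 °C, 1086 ± 521 in KO at room temperature and 1724 ± 290.5 in WT at room temperature (SD). Dgat2 was second at 29 °C in both genotypes and Agpat2 second at room temperature. Pck1 and Dgat2 overlapped in WT at 29 °C, Pck1 and Agpat2 in KO at room temperature, and Agpat2 and Dgat2 in WT at room temperature. Gpam, Agpat3, Dgat1 and Lpin1 held the middle ranks, with at least 1 overlapping pair of neighbours among them in every group. Mogat1 ranked above Lpin3 and Lpin2 at room temperature and below Lpin3 at 29 °C. Lpin2, at 0.892 ± 0.147 CPM per kilobase in KO at 29 °C and 1.36 ± 0.21 in WT at 29 °C, was lowest in every group but WT at 29 °C, where Mogat1 was, with overlapping ranges. Parts of this order turned on the length. With the longest transcript Dgat2 (385 ± 83) lay above Pck1 (359 ± 58) in WT at 29 °C, and Agpat2 (1476 ± 260.3) above Pck1 (1365 ± 655) in KO at room temperature, with overlapping ranges in both. The lowest gene was then Mogat1 in both groups at 29 °C and Lpin3 in both groups at room temperature, and the order of Gpam, Agpat3, Dgat1 and Lpin1 changed as well.

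Other genes of the pathway, 39 in the table and 36 tested, were grouped into 7 roles. At 29 °C 17 were higher and 4 lower in KO, where 24.7% of all genes were higher and 20.0% lower, and the median log2 fold change was 0.22 against 0.04 over all genes. At room temperature none was called between the genotypes, where 0.239% of all genes were. At 29 °C in WT 5 were higher and 22 lower than at room temperature, where 68.8% of all genes were called (35.9% higher and 32.8% lower), and the median was -0.70 against 0.06 over all genes. In KO 5 were higher and 16 lower, where 46.0% of all genes were called (24.3% higher and 21.7% lower).

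Among genes that supply substrates, the acyl-CoA synthetases Acsl1 (1.05 ± 0.18, adjusted p = 2.6e-04) and Acsl5 (0.73 ± 0.21, adjusted p = 0.0119) rose in KO at 29 °C, and 2 of 4 tested were not called. Without KO at 29 °C replicate 1 the adjusted p of Acsl5 was 0.0511. Each role holds few genes, and its count stands against the 24.7% of all genes called higher and 20.0% called lower in KO at 29 °C. Of 6 genes for glycerol 3-phosphate supply 4 rose and 1 fell. The glycerol-3-phosphate dehydrogenase Gpd1 averaged 4182 ± 247 CPM in KO at 29 °C and 2363 ± 229 CPM in WT at 29 °C (0.82 ± 0.13, adjusted p = 1.3e-04). Its relative Gpd1l (0.71 ± 0.09) and pyruvate carboxylase Pcx (1.19 ± 0.22) also rose. Glycerol kinase, Gk, rose with the widest error (2.59 ± 0.77, adjusted p = 0.0172), at 261 to 322 CPM in KO and 11.4 to 132 CPM in WT. The top of the WT range was replicate 4 alone, the other 3 being at 11.4 to 26.0 CPM, and without it the log2 fold change was 3.79 ± 0.63 (adjusted p = 6.8e-04), 13.8-fold where it was 6.02-fold with all libraries. Pck2, the mitochondrial counterpart of Pck1, singled out after its values were seen, fell (-0.40 ± 0.14, adjusted p = 0.0273), and in WT it rose at 29 °C (1.65 ± 0.13), against the direction of Pck1 in both comparisons. The call of Pck2 between genotypes was lost without KO at 29 °C replicate 2 or 3 or WT at 29 °C replicate 1 or 3 (adjusted p from 0.0679 to 0.118).

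Among the other enzymes, Agpat9, the table's older symbol for glycerol-3-phosphate acyltransferase 3 (1.29 ± 0.29, adjusted p = 0.00307), and Agpat1 (0.42 ± 0.10, adjusted p = 0.00231) rose in KO at 29 °C. They were 2 of 5 tested glycerol-phosphate and lysophosphatidate acyltransferases outside the 10 genes, and the other 3 were not called. Agpat9 averaged 37.9 ± 9.9 CPM in KO at 29 °C, 15.6 ± 3.0 in WT at 29 °C, 10.1 ± 4.7 in KO at room temperature and 14.6 ± 3.9 in WT at room temperature, so KO at 29 °C was its highest group. Bscl2, which encodes seipin, a protein of lipid droplet formation, rose (0.92 ± 0.10, adjusted p = 5.5e-06), as did Ctdnep1, a phosphatase that acts on lipins (0.36 ± 0.09, adjusted p = 0.00376). Of the 3 genes in that role, 2 were thus called and 1 was not. Mogat2 rose (1.88 ± 0.42, adjusted p = 0.00173) but stayed under 1 CPM in both groups, at 0.450 ± 0.189 CPM in KO and 0.117 ± 0.040 CPM in WT. Its fold rests on few reads, 11 to 17 estimated counts a library in KO at 29 °C and 2 to 4 in WT at 29 °C. Of 3 tested genes in the role of Mogat2, 2 were called higher and 1 was not called. The other called gene, Tmem68, averaged 13.3 ± 1.7 CPM in KO at 29 °C and 8.56 ± 1.38 CPM in WT at 29 °C.

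Users of phosphatidate or diacylglycerol outside triglyceride synthesis went both ways. The diacylglycerol kinases Dgka (-0.76 ± 0.11, adjusted p = 3.9e-05), Dgkq (-0.79 ± 0.13, adjusted p = 1.3e-04) and Dgkz (-0.96 ± 0.16, adjusted p = 1.7e-04), which turn diacylglycerol back into phosphatidate, fell in KO at 29 °C, and each rose at 29 °C in WT (by 0.80 to 1.76). Chpt1, a cholinephosphotransferase, rose in KO at 29 °C (0.92 ± 0.12), and the other 5 of 9 were not called. Of 6 transcriptional regulators listed with the pathway, 4 rose, where 24.7% of all genes were called higher. They were Cebpa (1.13 ± 0.14), Pparg (0.92 ± 0.18), the coactivator Ppargc1a (1.95 ± 0.43) and Srebf1 (1.15 ± 0.30), with adjusted p from 9.4e-06 to 0.00702. Mlxipl and Rxra were not called. Ppargc1a is also among the brown adipocyte markers below.

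**Figure D5:**
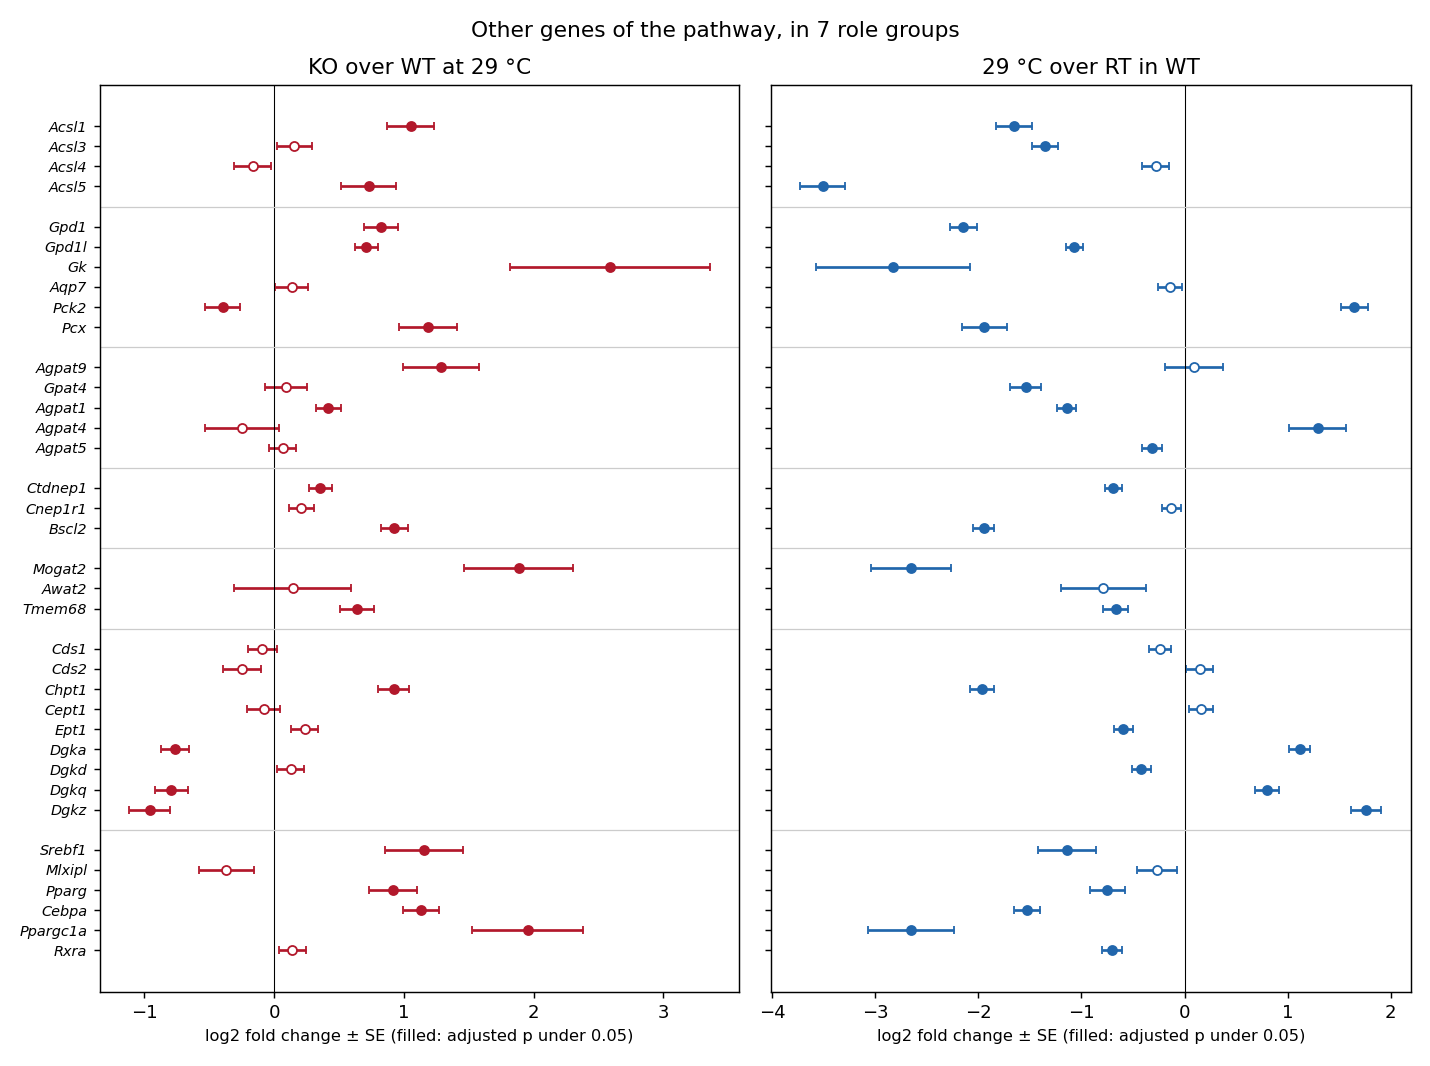
Log2 fold change ± SE of the 36 tested other pathway genes, in 7 groups by role separated by lines, for KO over WT at 29 °C (left) and 29 °C over room temperature (RT) in WT (right); filled points have an adjusted p under 0.05. In the left panel 17 filled points lie above 0 and 4 below; in the right panel 5 lie above and 22 below.

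BAT is a mixture of cells, and in bulk samples fewer cells of a type and less RNA per cell cannot be told apart. The summed level of 7 brown adipocyte markers was 15877 to 19194 CPM in KO at 29 °C and 9619.5 to 10620.5 CPM in WT at 29 °C, and 5 of the 7 were called higher in KO. It was 16208 to 25937 CPM in KO at room temperature and 22207 to 23234 CPM in WT at room temperature, where none was called. Of the 7, Ucp1 alone averaged 7233 CPM in KO at 29 °C and 1019 CPM in WT at 29 °C. Much of the gap in the sum between the genotypes at 29 °C thus lay in Ucp1. At 29 °C all 10 endothelial markers were lower in KO (663 to 878 CPM against 1532 to 2055 CPM in WT), 8 of 9 lymphocyte markers were higher (23.2 to 27.7 CPM against 6.34 to 9.12 CPM) and 4 of 8 macrophage markers were higher (375 to 554 CPM against 215 to 324 CPM). Fibroblast markers were called higher for 3 of 5 (495 to 545 CPM against 287 to 514 CPM) and white adipocyte markers for 0 of 4 (160.0 to 274 CPM against 115 to 233 CPM). Hepatocyte markers stayed under 1 CPM in sum, at 0.150 to 0.971 CPM in KO at 29 °C and 0.0404 to 0.139 CPM in WT at 29 °C. Between 29 °C and room temperature in WT, all 7 brown adipocyte markers were lower and all 10 endothelial, all 8 macrophage and 8 of 12 muscle markers were higher. Muscle markers took 0.181% of counts in WT at 29 °C replicate 2, but at most 0.00626% in the other WT libraries. Of 9 lymphocyte markers 6 were higher, of 5 fibroblast markers 1 was higher, and of 4 white adipocyte markers 1 was higher and 1 lower. Over all genes, 35.9% were called higher and 32.8% lower in that comparison. What part the cell type markers have in the results on the 10 genes was not tested. Of 12 muscle markers none was called between KO and WT at 29 °C, and the summed level reached 1715 CPM in KO and 1510 CPM in WT. Leaving out the 3 libraries with muscle transcripts left 1 KO library at 29 °C, and Pck1, Gpam, Lpin1, Lpin2 and Dgat2 were still called, with 4 higher and 1 lower. Agpat2, Agpat3 and Dgat1 were not called there. Their log2 fold changes were 0.61, 0.51 and 0.53, against 0.60, 0.66 and 0.50 with all libraries. Those of the others moved as well, Gpam from 1.12 to 0.80, Lpin3 from -0.04 to -0.47 and Mogat1 from 0.21 to 0.72. Pck1 went from 2.0 to 1.78, Lpin1 from 1.43 to 1.40, Lpin2 from -0.61 to -0.79 and Dgat2 from 1.29 to 1.41.

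Genes whose levels followed each of the 10 most closely were found as the smallest root-mean-square difference of centred log2 CPM over the 15 libraries, out of 9517 candidates averaging 5 CPM or more. For Gpam they were Letmd1 (0.139), Abcd3 and Hadha, for Agpat3 Rmdn1 (0.0994), Egln1 and Coq9, and for Dgat2 Kctd13 (0.136), Clybl and Lipe. For Lpin1 they were Nfic (0.128), Klhdc7a and Slc19a1, for Dgat1 Rab3ip (0.119), Lsm1 and Tmem9b, and for Agpat2 Dhrs7 (0.154), Tkt and Pygl. For Lpin2 they were Otud7b (0.163), Pqbp1 and Herc2, and for Lpin3 Prex1 (0.179), Bcl10 and Rack1. Mogat1 and Pck1 had no partner as close on this measure, which is not scaled and can grow with the spread of a gene's own levels. Nearest to Mogat1 were Slc25a1 (0.302), Acss2 and Nsdhl, and nearest to Pck1 were Pfkfb3 (0.282), Cib2 and Pcdhgc3. Among the 10 genes themselves the closest pair was Lpin1 and Dgat2 (0.339) and the farthest Lpin3 and Mogat1 (1.99).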

How the data were processed

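The table the authors deposited holds RSEM expected counts for 24030 gene symbols in 15 libraries; 7.26% of entries have decimals and 24 symbols had been turned into dates. Per the submitters' processing notes, reads were mapped to mm10 with STAR 2.7.10a, quantified with RSEM 1.2.28 and compared with DESeq2 (version given as 1.3.40). Libraries were 150-base paired-end reads per the labels.

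Values were rounded to whole counts, filtered with filterByExpr by group (minimum count 10), scaled by TMM and fitted in 1 model of 4 groups (11 residual degrees of freedom) with edgeR 4.0.16's robust quasi-likelihood test in R 4.3.3. P-values were adjusted by Benjamini-Hochberg over all genes tested. The fit was tested on simulated data. Log2 CPM used a prior count of 1. Levels per length used merged exons of GENCODE vM21 (GRCm38). Precision is limited by 3 or 4 libraries a group, and folds of low genes such as Mogat1 also by their counts.

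The members, lists and tests were chosen with earlier results of these data known. Besides the 10 genes, Park7 and Ucp1, up to 4 other pathway genes per role and comparison with the smallest p among those called were named. The 3 genes most like each member were named as well. Alternatives were RLE size factors, no filter or 1 CPM in 4 libraries, only the groups compared, DESeq2 1.42.0, limma-voom (limma 3.58.1), the replicate number as a block, no mitochondrial genes, leaving out 3 libraries with over 0.05% muscle markers, KO at room temperature replicates 2 and 4, or each library in turn, the longest transcript as length, and, chosen after the data were seen, library totals without TMM, each library left out for the other pathway genes, and the longest transcript for the order of levels.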

Additional observations from a re-analysis of the deposited data

Results flagged for a closer look

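In 5 of 33 sets of 4 libraries examined, the highest or lowest library stood apart from the other 3 by Dixon's ratio, where chance alone gives about 1 in 20. WT at 29 °C replicate 4 was high for Gpam (133 CPM, against 117 to 119 CPM in its group), Lpin2 (20.5 CPM, against 14.9 to 15.6) and Dgat1 (179.8 CPM, against 119 to 124). That library also had the largest mitochondrial share, 41.6% of counts. KO at room temperature replicate 2 was high for Dgat2 (2354 CPM, against 1819 to 1892), and WT at room temperature replicate 3 was low for Mogat1 (7.22 CPM, against 9.18 to 9.45).

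The KO effect at 29 °C differed from that at room temperature by an interaction test for 7 genes, the same 7 as above, in edgeR's quasi-likelihood fit. The log2 differences were 2.66 for Pck1, 1.38 for Dgat2, 1.27 for Gpam, 0.99 for Lpin1, 0.78 for Agpat3, 0.62 for Dgat1 and -0.75 for Lpin2.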

How the results depend on the processing

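Of 35 called results on the 10 genes, none changed direction under any alternative run; 642 of 666 alternative values kept the call and 24 lost it. Of 25 results not called, 474 alternatives gave 7 calls and 38 changes of sign. Without the 3 libraries with muscle transcripts, which leaves 1 KO library at 29 °C assumed to vary like the others, 5 of the 10 genes were called for KO at 29 °C (from 8) and 4 for the interaction (from 7). That setting also gave 4229 calls over all genes for KO against WT at 29 °C (from 6747), 4129 for housing in KO (from 6940), 3858 for KO at 29 °C against WT at room temperature (from 6582) and 13 for KO against WT at room temperature (from 36). The last count was 237 with DESeq2, 20 with library totals without TMM, 5 without KO replicates 2 and 4, and 5 (without KO replicate 2 or 4) to 60 (without KO replicate 1) leaving out single libraries. Leaving out single libraries gave 6 to 8 of the 10 for KO at 29 °C, with 5374 to 6616 calls over all genes (6747 with all libraries). For the interaction it gave 5 to 7, with 3277 to 4563 calls over all genes (4272 with all libraries).

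Signs changed, with no call, as follows. For housing in KO, Pck1 became -0.10 without the muscle libraries and -0.43 without KO replicates 2 and 4, and Lpin2 0.17 and Dgat1 0.22 without TMM. For the interaction, Lpin3 became -0.34 and Mogat1 0.37 without the muscle libraries, and Mogat1 0.089 without KO replicates 2 and 4. For KO at 29 °C against WT at room temperature, Dgat2 became -0.0089 (RLE), -0.061 (no filter), -0.049 (replicate block) and -0.0089 (DESeq2), Lpin2 0.019 (1 CPM), 0.023 (only the groups compared), 0.014 (no mitochondrial genes) and 0.34 (no TMM), and Lpin1 0.23 and Dgat1 0.13 without TMM. Leaving out single libraries gave -0.14 to 0.10 for Lpin3 in KO at 29 °C, -0.13 to 0.28 for Pck1 for housing in KO, -0.020 to 0.21 for Lpin3 and -0.33 to 0.15 for Mogat1 in the interaction, and -0.33 to 0.11 for Lpin1, -0.14 to 0.11 for Lpin2 and -0.074 to 0.13 for Dgat2 in KO at 29 °C against WT at room temperature. The log2 Dgat2 to Dgat1 ratio gave -0.059 to 0.12 for KO against WT at room temperature. For housing in WT the ratio kept its sign, at -0.71 to -0.32 (exact permutation p from 0.0286 to 0.171). That p was over 0.05 whichever WT library at room temperature was left out. The difference was then -0.62 to -0.50, against -0.58 with all libraries. The cause of these changes was not tested.

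Replicate numbers were not used as pairs in the main fit. Of 21 same-numbered pairs of libraries, 4 had deviations correlated over 0.1 (r from -0.28 to 0.33). For libraries of different number and group r ran from -0.61 to 0.50. Deviations from means of 3 or 4 libraries are tied to each other, so these correlations cannot decide whether the numbers mark pairs. The replicate block gave 8, 0, 10, 6, 7 and 5 called members for KO against WT at 29 °C and at room temperature, housing in WT and in KO, the interaction and KO at 29 °C against WT at room temperature, where the fit without it gave 8, 0, 10, 5, 7 and 5. In the same order, calls over all genes were 6339, 25, 10270, 6691, 4045 and 6458 with the block. They were 6747, 36, 10375, 6940, 4272 and 6582 without it.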
